A study of Homo sapiens with 8 samples.

Results

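The insulin and IGF system of hCMEC/D3 cells was described from 10 transcripts: the insulin receptor INSR, the IGF receptor IGF1R, the receptor substrates IRS1 and IRS2, and the binding proteins IGFBP2, IGFBP3, IGFBP4, IGFBP5, IGFBP6 and IGFBP7. They were taken by gene symbol from a table of 23346 genes, and all 10 were present in it. The line is an immortalised, clonal line of human brain microvascular endothelial cells, widely used to model the blood-brain barrier in culture, and it carries introduced telomerase and simian virus large T antigen. Polyadenylated RNA from 8 samples of it was sequenced. The samples form 1 group with no treatment, genotype or time to compare, and the labels do not say whether they were separate cultures. The p-values below therefore measure only the spread between these 8 samples, which may be technical.

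Insulin and the insulin-like growth factors IGF1 and IGF2 act through 2 related receptor tyrosine kinases, the products of INSR and IGF1R, which can also pair as hybrids. The active receptors phosphorylate IRS proteins, which dock PI3K and so switch on AKT and mTOR and keep FOXO factors out of the nucleus. IGFBP1 to IGFBP6 are secreted proteins that bind IGFs tightly and are cut by proteases, while IGFBP7 binds IGFs weakly and is a known product of endothelium. In brain vessels, endothelial insulin and IGF receptors have been studied as carriers of their ligands across the vessel wall as well as for signalling.

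Total counts lay between 69388544 and 90205244 per library, and all counts were even, so that 1 CPM (the counts scaled to library size with TMM factors) stood for 68.1 to 90.3 counts. Replicates 2, 7 and 8 stood apart from the other 5. In these 3 libraries, levels relative to the gene mean declined with transcript length, by -0.21, -0.10 and -0.32 (log2 per doubling of length), and climbed with GC content, by 0.28, 0.09 and 0.35 per 10 percentage points. In the other 5 the slopes had the opposite sign, 0.08 to 0.14 for length and -0.18 to -0.09 for GC content. Of the detected genes, 30.9% had CPM values in all 3 of these libraries above those of the other 5, and 27.3% had them below. Of the 9 transcripts detected by the rule below, IGFBP2, IGFBP4 and IGFBP7 were among the former and IGF1R among the latter. On the CQN-normalised values described below, 17.3% of detected genes and none of these transcripts had the 3 libraries highest, and 14.5% of genes and 1 transcript, IGFBP7, had them lowest. All 10 endothelial markers, among them CDH5, PECAM1 and VWF, were detected, with a summed level of 2357 to 4370 CPM. Of the markers of other cells, 5 of 8 mural, 3 of 8 mesenchymal, 3 of 8 epithelial, 1 of 8 astrocyte, 3 of 8 neuron and 1 of 8 microglia or leukocyte genes were detected. Their summed levels were 47.3 to 74.2 CPM (mural), 148 to 213 (mesenchymal), 318 to 511 (epithelial), 202 to 444 (astrocyte), 99.2 to 137 (neuron) and 47.9 to 85.4 CPM (microglia or leukocyte). The highest single gene of each was CSPG4, COL1A2, KRT18, GJA1, MAP2 and CD68. These had means of 32.9, 134, 358, 353, 58.1 and 58.8 CPM. The medians of the same lists were only 4.20, 0.574, 0.740, 0.0931, 0.966 and 0.287 CPM, so the sums rested largely on single genes. AQP4, STMN2 and P2RY12 had no counts in any library. The line is clonal, so a detected marker need not mean a second cell type, and the presence of other cells was not tested. In bulk RNA, fewer cells of a type and less RNA per cell cannot be told apart.

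Detection was set at 1 CPM or more in all 8 libraries, which 51.3% of the listed genes met. Of the 10 transcripts, 9 met it. The exception was IRS2, which reached 1 CPM in 6 libraries. Levels of different genes were compared as RPKM, the CPM value divided by the length of the canonical transcript in kilobases. The transcripts spanned more than 3 orders of magnitude and fell into 3 tiers. IGFBP7, IGFBP4 and IGFBP2 had mean RPKM values of 231 or more. IGFBP6, IGFBP3, IGF1R, IRS1 and INSR lay between 2.14 and 27.4 RPKM. IGFBP5 and IRS2 were below 0.5 RPKM.

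**Figure D1:**
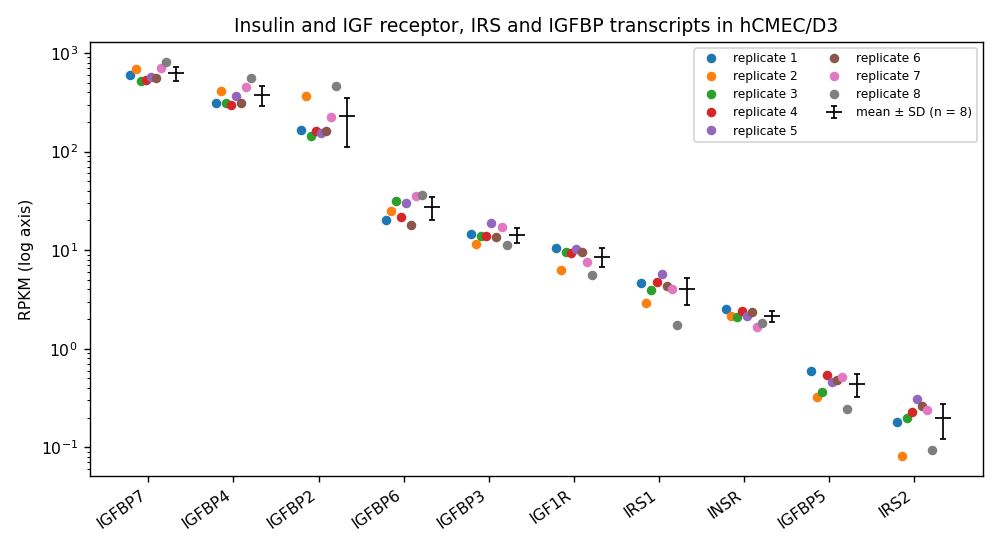
RPKM of each transcript (log axis) in the 8 libraries (coloured points), with the mean and SD beside them (black), ordered by mean. IGFBP7, IGFBP4 and IGFBP2 lie at 145 RPKM or more in every library, and IRS2 lies at or below 0.305 RPKM.

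Neighbours in this order kept their rank in 8 of 8 libraries, except IRS1 over INSR, which held in 7 of 8. On the log2 scale, the neighbours differed by between 0.75 ± 0.12 (IGFBP7 over IGFBP4, SD, n = 8) and 2.98 ± 0.60 (IGFBP2 over IGFBP6). Not every step held on the authors' CQN-normalised values. These are log2 values from a method made to adjust for length and GC content, with settings that are not given. There IGFBP7 and IGFBP4 differed by 0.03 ± 0.13 and kept their order in only 4 of 8 libraries, so they were not separated beyond their spread. In the middle tier, IGF1R came first on that scale (6.48 ± 0.10), above IGFBP3 (6.11 ± 0.31) and IGFBP6 (5.98 ± 0.49), the reverse of their RPKM order. The order of these 3 transcripts thus depended on the scale, and CQN can differ from RPKM in the treatment of GC content as well as length. With the union of exons as length, the RPKM order stayed (IGFBP6 19.2, IGFBP3 8.18 and IGF1R 7.53). On CPM, with no length correction, it was reversed (IGF1R 105, IGFBP3 37.4 and IGFBP6 25.9).

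Of the receptors, IGF1R was the higher. IGF1R (ENSG00000140443, hg19 chromosome 15, 99192761 to 99507759, plus strand, 21 exons, 12235 nt) encodes the type 1 IGF receptor. Its level was lowest at 67.7 CPM in replicate 8, had a median of 116 CPM and was highest at 128 CPM in replicate 1. All of replicates 2, 7 and 8 (67.7 to 93.4 CPM) lay below the other 5 (114 to 128 CPM). On CQN-normalised values the libraries were closer and the sets overlapped, with a range from 6.36 to 6.62, and its SD there was larger than that of only 20.6% of detected genes. INSR (ENSG00000171105, chromosome 19, 7112266 to 7294011, minus strand, 22 exons, 9463 nt) encodes the insulin receptor. Its level ran from 15.8 CPM in replicate 7 over a median of 20.2 to 23.8 CPM in replicate 1. This was the narrowest CPM range of the 10 transcripts, with the highest library 1.51 times the lowest. On CQN-normalised values INSR was highest in replicates 2 and 8 (4.54 and 4.52) and between 3.88 and 4.14 in the other 6 libraries. Gene counts do not separate the INSR isoforms with and without the short alternative exon that sets affinity for IGF2.

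Per unit of length, IGF1R transcripts outnumbered INSR transcripts in every library. RPKM was 8.58 ± 1.87 for IGF1R and 2.14 ± 0.290 for INSR (SD, n = 8). The log2 ratio was 1.93 ± 0.27 on the log2(RPKM + 0.1) scale, a 3.82-fold difference, and ranged from 1.51 in replicate 2 to 2.21 in replicate 5 (8 of 8 libraries positive). By a two-sided exact permutation test that flips the signs of the ratios, p and its adjusted value were both 0.00781. This is the smallest this test can give with 8 libraries, and the adjustment was over the 6 ratios tested. Each of the 6 had the same sign in all 8 libraries and gave this value, whatever its size. The p-value thus shows only that the sign repeated between libraries, for pairs chosen with earlier results known. IGF2R, the cation-independent mannose 6-phosphate receptor that clears IGF2 without signalling through a kinase, was above IGF1R in turn. It had 18.9 ± 6.05 RPKM, and its log2 ratio to IGF1R was 1.08 ± 0.22 in 8 of 8 libraries (n = 8, exact permutation test by sign flips, p and adjusted p both 0.00781). With the union of exons as length, the IGF2R to IGF1R log2 ratio was 0.59. INSRR, an orphan relative of both kinases that senses alkaline pH, was not detected, at 0.128 CPM on average.

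The receptor substrates differed far more. IRS1 (ENSG00000169047, chromosome 2, 227596033 to 227663506, minus strand, 2 exons, 9771 nt) had 17.0 CPM in replicate 8, a median of 41.1 and 55.3 CPM in replicate 5. Replicate 8 was the lowest library on CQN-normalised values too (4.53, against 4.85 to 5.49). IRS2 (ENSG00000185950, chromosome 13, 110406184 to 110438914, minus strand, 2 exons, 8156 nt) was lowest in replicates 2 and 8, with 0.665 and 0.757 CPM, while the other 6 libraries held 1.47 to 2.49 CPM. The values in the lowest libraries rest on 30 and 32 read pairs, with 95% exact Poisson intervals of 0.449 to 0.949 and 0.518 to 1.07 CPM, which cover counting error only. These intervals did not reach the lower bound of replicate 1, 1.09 CPM, which was the next lowest library. CQN-normalised values gave the same low pair for IRS2, with -0.67 and -0.04 against 0.67 to 1.43 elsewhere. The log2 ratio of IRS1 to IRS2 was 3.76 ± 0.27 on the log2(RPKM + 0.1) scale, a 13.6-fold difference, and ranged from 3.26 to 4.08 (8 of 8 libraries positive, n = 8, exact permutation test by sign flips, p and adjusted p both 0.00781). The added 0.1 understates the fold of a gene as low as IRS2, and on CQN-normalised values the difference was 4.41 ± 0.57, whereas adding 1 in place of 0.1 gave 2.02. IRS4, the other substrate gene listed, had 32 read pairs over all 8 libraries and was not detected.

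Because IRS1 and IRS2 serve the same receptors at such different transcript levels, their promoters are shown, from 250 bases before to 50 bases after the start in RefSeq on GRCh38.p14. These are chr2:226799771-226800070 (minus strand) and chr13:109786534-109786833 (minus strand). Capitals mark matches on either strand to GGGCGG, the GC box bound by Sp factors, and to CAAAACA, the core of the insulin response element bound by FOXO factors. TATAAA, the TATA box, was searched as well.
IRS1: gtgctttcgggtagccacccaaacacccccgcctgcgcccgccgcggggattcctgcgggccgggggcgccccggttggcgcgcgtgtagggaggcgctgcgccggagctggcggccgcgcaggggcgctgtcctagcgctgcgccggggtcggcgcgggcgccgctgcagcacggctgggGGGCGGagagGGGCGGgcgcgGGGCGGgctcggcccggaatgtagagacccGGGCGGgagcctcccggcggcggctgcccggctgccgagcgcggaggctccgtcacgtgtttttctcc
IRS2: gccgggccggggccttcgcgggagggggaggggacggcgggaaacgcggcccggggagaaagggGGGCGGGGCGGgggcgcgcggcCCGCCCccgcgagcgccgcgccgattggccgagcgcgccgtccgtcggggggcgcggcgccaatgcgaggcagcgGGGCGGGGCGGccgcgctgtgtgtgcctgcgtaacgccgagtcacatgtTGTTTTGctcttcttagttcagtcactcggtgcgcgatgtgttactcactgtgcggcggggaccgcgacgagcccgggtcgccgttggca
The IRS1 window held 4 GC boxes and the IRS2 window 5, and overlapping or adjoining matches were counted separately. Such a box occurred in 45.0% of the 35116 promoter windows of that length. The IRS2 window also held 1 insulin response core on the opposite strand, 40 bases before the start, a string found in 4.92% of windows. The IRS1 window held none, and neither held TATAAA, which 11.5% of windows did. GC content was 79.3% for IRS1 and 75.7% for IRS2, against a median of 58.7%. A match is only a string of letters, and the data hold no binding measurement.

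The binding proteins held the 3 highest places of the 10 and the place next to the lowest. IGFBP7, IGFBP4 and IGFBP2 together made up 96.0% ± 0.804 of the summed RPKM of IGFBP1 to IGFBP7 (SD, n = 8), from 94.9% in replicate 3 to 97.1% in replicate 8. IGFBP7 alone held 49.4% ± 3.51, IGFBP4 29.4% ± 1.54 and IGFBP2 17.2% ± 4.63. The share of IGFBP2 was 24.4% and 24.8% in replicates 2 and 8, and between 13.3% and 15.7% in the other 6 libraries. With the union of exons as length, the mean shares were 49.4% for IGFBP7, 39.8% for IGFBP4 and 7.00% for IGFBP2. The size of the IGFBP2 share thus depended on the transcript length used. Its place did not, below IGFBP4 and above IGFBP6 (2.06% with that length). IGFBP6, IGFBP3, IGFBP1 and IGFBP5 held 2.17%, 1.18%, 0.584% and 0.0368%.

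**Figure D2:**
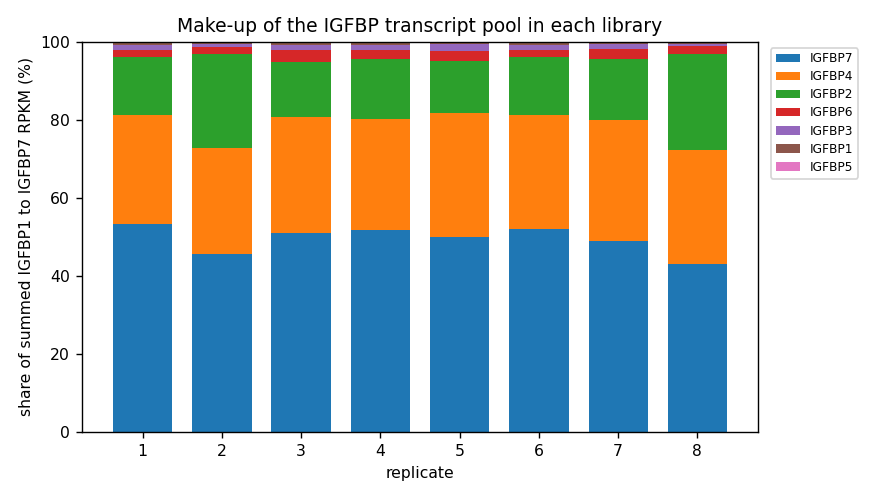
Share of the summed RPKM of IGFBP1 to IGFBP7 taken by each gene (stacked bars, percent) in replicates 1 to 8. IGFBP7 is the largest part in every library, from 43.0% to 53.3%, and IGFBP2 takes 24.4% and 24.8% in replicates 2 and 8.

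IGFBP7 (ENSG00000163453, chromosome 4, 57897237 to 57976551, minus strand, 5 exons, 1427 nt), a secreted protein of vessel walls and basement membrane, reached 624 ± 99.96 RPKM, above 99.3% of detected genes with a known length. Its level ran from 750 CPM in replicate 3 over a median of 834 to 1156 CPM in replicate 8. Replicates 2, 7 and 8 (984 to 1156 CPM) lay above all others (750 to 845 CPM). On CQN-normalised values the same libraries lay below all others, at 10.52 to 10.71 against 10.81 to 10.87. With each library's trend on length and GC content removed from CPM, the sets overlapped, at 814 to 933 against 852 to 932 CPM. The direction between these sets of libraries thus depended on the scale. The gene overlaps POLR2B on the other strand (186 CPM), and since no source used here states whether the counting used strand, reads in the shared stretch cannot be told apart. The same holds for annotated opposite-strand transcripts at IGF1R, IGFBP5 and IRS2.

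IGFBP4 (ENSG00000141753, chromosome 17, 38599676 to 38613982, plus strand, 4 exons, 2205 nt), the binding protein cut by the protease PAPP-A, reached 376 ± 89.7 RPKM, above 98.8% of detected genes with a known length. Its level ran from 656 CPM in replicate 4 over a median of 751 to 1217 CPM in replicate 8. Here too replicates 2, 7 and 8 (911 to 1217 CPM) were above the rest (656 to 810 CPM), while the CQN-normalised values overlapped (10.39 to 10.94 over all libraries). The log2 ratio of IGFBP7 to IGFBP4 on the log2(RPKM + 0.1) scale was 0.75 ± 0.12 in 8 of 8 libraries (n = 8, exact permutation test by sign flips, p and adjusted p both 0.00781). With CQN-normalised values this ratio was 0.03 with an adjusted p of 0.586 in the exact permutation test. The call was thus lost on that scale. The log2 ratio was 0.31 with the union of all annotated exons as length (adjusted p = 0.00781, exact permutation test) and 0.12 on CPM, with no length correction (adjusted p = 0.0391, exact permutation test).

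IGFBP2 (ENSG00000115457, chromosome 2, 217498127 to 217529158, plus strand, 4 exons, 1414 nt), a binding protein that prefers IGF2 and carries an integrin-binding motif, reached 231 ± 121 RPKM. Replicates 1 to 8 had 233, 522, 204, 229, 217, 227, 320 and 660 CPM. Replicates 8, 2 and 7 were the 3 highest, and the other 5 lay within 204 to 233 CPM. The union of all its annotated exons is 4742 nt against 1414 nt for the canonical transcript, and with that length its mean was 68.8 RPKM, below IGFBP7 and IGFBP4 and above all others, as before.

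IGFBP5 is its neighbour on chromosome 2, with 7669 bases between the genes in the table, and lay at the other end of the scale. IGFBP5 (ENSG00000115461, 217536828 to 217560272, minus strand, 4 exons, 6239 nt) binds IGFs and extracellular matrix. Its level ran from 1.51 CPM in replicate 8 over a median of 2.92 to 3.67 CPM in replicate 1. The log2 ratio of IGFBP2 to IGFBP5 was 8.64 ± 0.94 on the log2(RPKM + 0.1) scale, a 398-fold difference, from 7.90 in replicate 1 to 10.41 in replicate 8 (8 of 8 libraries positive, n = 8, exact permutation test by sign flips, p and adjusted p both 0.00781). On CQN-normalised values the difference was 8.44 ± 0.32. It was smaller with the union of exons as length (6.94) and on CPM, with no length correction (6.76). IGFBP3, another binding protein that attaches to matrix, exceeded it by 4.76 ± 0.25 (RPKM scale, 8 of 8 libraries, n = 8, exact permutation test by sign flips, p and adjusted p both 0.00781).

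The promoters of these neighbours are shown since the genes sit side by side with very different transcript levels. They are chr2:216633170-216633469 (plus strand) for IGFBP2 and chr2:216695500-216695799 (minus strand) for IGFBP5, from RefSeq on GRCh38.p14, with capitals as above. RefSeq has 3 starts for IGFBP2, and the one shown matches the first base of the canonical transcript.
IGFBP2: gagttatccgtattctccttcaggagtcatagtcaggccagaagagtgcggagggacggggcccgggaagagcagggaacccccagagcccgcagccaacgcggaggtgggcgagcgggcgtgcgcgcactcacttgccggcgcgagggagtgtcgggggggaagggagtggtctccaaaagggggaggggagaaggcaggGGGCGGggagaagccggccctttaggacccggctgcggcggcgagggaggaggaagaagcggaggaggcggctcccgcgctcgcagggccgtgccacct
IGFBP5: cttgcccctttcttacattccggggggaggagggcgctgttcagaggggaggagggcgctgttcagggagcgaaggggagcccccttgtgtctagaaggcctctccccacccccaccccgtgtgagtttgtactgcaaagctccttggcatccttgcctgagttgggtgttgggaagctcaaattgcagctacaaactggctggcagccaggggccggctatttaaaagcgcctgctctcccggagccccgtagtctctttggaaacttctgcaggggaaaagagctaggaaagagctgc
The IGFBP2 window was 70.0% G and C, with 28 CpG dinucleotides and 1 GC box 49 bases before the start. The IGFBP5 window was 59.0% G and C with 9 CpG dinucleotides, and none of the 3 strings occurred in it. The median over all windows was 58.7% and 14 CpG dinucleotides. Windows were found for 9 of the 10 genes. Of these, only the IGFBP4 window held TATAAA, 29 bases before its start.

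IGFBP6 (ENSG00000167779, chromosome 12, 53491436 to 53496128, plus strand, 4 exons, 947 nt), which prefers IGF2 over IGF1, reached 27.4 ± 7.00 RPKM. Replicates 1 to 8 had 19.3, 23.7, 30.1, 20.7, 28.3, 17.2, 33.9 and 34.2 CPM. Replicates 3 and 5 were thus high among the 5 libraries other than 2, 7 and 8, whose values were otherwise 17.2 to 20.7 CPM. On CQN-normalised values IGFBP6 was highest in replicates 3 and 5 (6.66 and 6.41) and lowest in replicates 2 and 8 (5.21 and 5.38). IGFBP3 (ENSG00000146674, chromosome 7, 45951844 to 45960871, minus strand, 5 exons, 2613 nt), the main IGF carrier of the blood, reached 14.3 ± 2.60 RPKM. Its level ran from 29.2 CPM in replicate 8 over a median of 36.1 to 48.9 CPM in replicate 5. Replicates 5 and 7 were highest and replicates 2 and 8 lowest on both scales (CQN-normalised values from 5.64 to 6.55).

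Variation between libraries was tested against genes of the same abundance by the goodness of fit of edgeR's trended dispersion, with p-values adjusted over all 11980 detected genes. By this test 4.66% of detected genes varied more than the trend, and 1 of the 9 detected transcripts, IGFBP2, did so (adjusted p = 0.00642). IRS1 missed the threshold (edgeR adjusted p = 0.346), and the other 7 had adjusted p-values of 0.969 or more. The trend was fitted over all 8 libraries, with the split of replicates 2, 7 and 8 in it. Counting error aside, it stood at a coefficient of variation of 23.2% for IGFBP2 to 24.8% for INSR. A transcript not called was thus not shown to vary more than such genes, which does not make it stable. With the fitted trend of DESeq2 as the reference, which called 23.5% of detected genes, IGFBP2 and IRS1 were called. For IRS1 the unadjusted edgeR p was 0.0425 over all 8 libraries and 0.355 without replicate 8, its lowest library. The DESeq2 trend was not fitted with single libraries left out. The IGFBP2 transcript is longer than only 12.4% of those of detected genes, and 98.8% of detected genes had a lower GC content than its 67.4%. When each library's trend on length and GC content was removed, IGFBP2 was still highest in replicates 8 and 2 (379 and 358 CPM). Replicate 7 (269 CPM) then lay within the range of the other 5 (252 to 310 CPM). The adjusted p from edgeR was 1.00 with that trend removed. Without replicates 2, 7 and 8 it was 1.00 as well, and the 5 remaining libraries had 222 ± 11.4 CPM. Leaving out single libraries gave edgeR adjusted p-values up to 0.0454, the value without replicate 8.

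IGFBP6 went the other way. It was not above the trend over all 8 libraries (edgeR adjusted p = 1.00), but it was with the length and GC trend removed (adjusted p = 0.0371), where 6.45% of genes were called. It was also above the trend among the 5 libraries other than 2, 7 and 8 (edgeR adjusted p = 6.15e-04), where 2.42% of genes were called. With the length and GC trend removed its level ran from 16.1 CPM in replicate 2 to 38.7 CPM in replicate 3, a 2.41-fold range, against 1.99-fold before. The IGFBP6 transcript is longer than only 5.47% of those of detected genes and has 64.7% G and C.

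**Figure D3:**
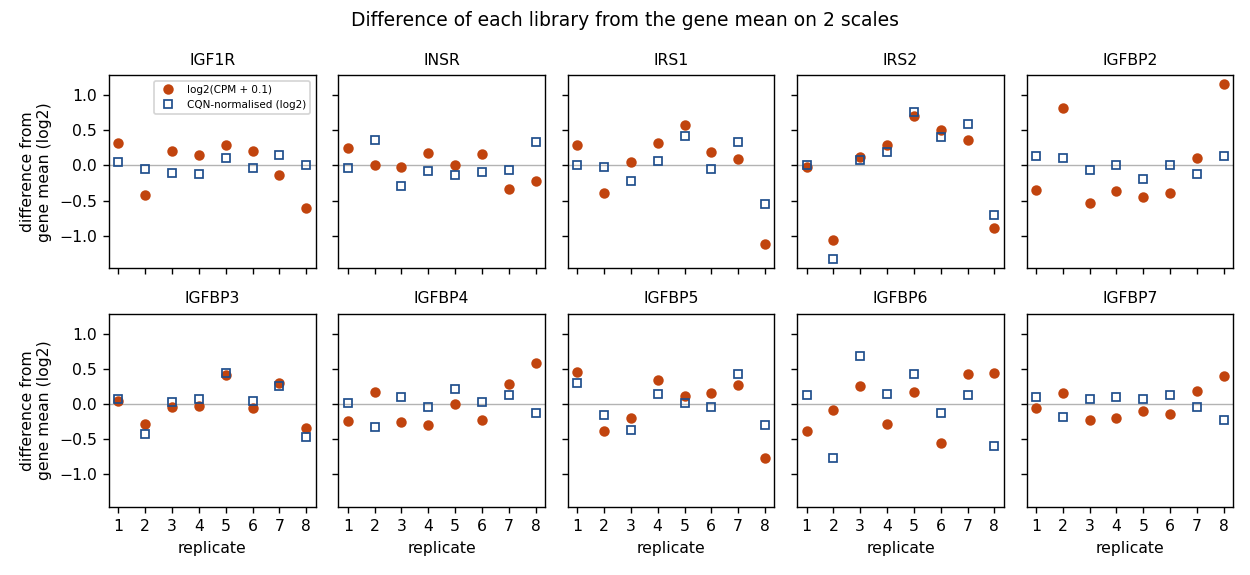
Difference of each library from the gene mean (log2) for the 10 transcripts in replicates 1 to 8, as log2(CPM + 0.1) (filled circles) and as CQN-normalised values (open squares). IGFBP2 spans 1.69 on the first scale and 0.33 on the second, whereas IGFBP6 spans 0.99 and 1.45.

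Across the 9 detected transcripts the median SD was 0.35 for log2(CPM + 0.1) and 0.23 for CQN-normalised values, beside 0.28 and 0.16 over all detected genes. The SD was smaller on the CQN scale for 6 of the 9, and for 74.2% of all detected genes. The exceptions were INSR (0.20 and 0.23), IGFBP3 (0.26 and 0.31) and IGFBP6 (0.38 and 0.49). IGFBP2 had an SD above 96.0% of detected genes in log2(CPM + 0.1) but above only 33.7% on the CQN scale. IRS2, outside the tested set, had SDs of 0.64 and 0.70.

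The ligands themselves were nearly absent from these libraries. IGF1 had 0.583 CPM on average (0.473 to 0.784), IGF2 had 27 read pairs over the 8 libraries, and INS had 1 read pair in 1 library and no counts in the other 7. A count of 0 allows up to 0.0665 to 0.0880 CPM, the level of 3 read pairs per library. None of the 3 ligand genes was detected. Of the other IRS and IGFBP family genes only IGFBP1, the insulin-suppressed binding protein of liver, was detected, with 7.13 ± 0.646 RPKM. IGFALS, the acid-labile subunit of the circulating IGF complex, had 0.430 CPM, and IGFBPL1 had 7 read pairs in all.

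Around these genes, 73 further insulin and IGF pathway genes were measured, and 58 of them (79.5%) were detected, beside 51.3% of all listed genes. Of the 58, 1 varied more than the trend, beside 4.66% of all detected genes. This was RICTOR, a scaffold of mTOR complex 2, with 30.2 CPM in replicate 8, 113 CPM in replicate 3 and an edgeR adjusted p of 0.00489, which was 0.503 with the length and GC trend removed. With that trend removed, 2 others of the 58 were called instead, beside 6.45% of all genes tested there. They were STC2 (edgeR adjusted p = 1.84e-06), a secreted PAPP-A inhibitor, and SOCS3 (edgeR adjusted p = 1.22e-07), an inhibitor of cytokine and insulin signalling. Without replicates 2, 7 and 8, the edgeR test called 3 of the 58, STC2, SOCS3 and FOXO1, beside 2.42% of all genes tested there. STC2 and SOCS3 are named here after their values were seen. With the fitted trend of DESeq2, 21 of the 58 were called, RICTOR, STC2 and SOCS3 among them, beside 23.5% of all detected genes. Among genes that act on the binding proteins, 7 of 10 were detected. The highest were ADAM9 (130.0 ± 42.3 RPKM), a cell-surface protease, and TMEM219 (63.3 ± 26.6 RPKM), an IGFBP3 receptor. PAPPA (0.507 CPM), PAPPA2 (0.0242 CPM) and ADAM28 (0.0337 CPM) fell below the detection level. Of the genes that process the receptors or degrade insulin, 3 of 5 were detected, led by FURIN, which cleaves the receptor precursors (38.6 ± 6.51 RPKM), and IDE, which degrades insulin (11.9 ± 3.03 RPKM). PCSK5 and PCSK6 were not detected (0.357 and 0.487 CPM).

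Downstream of the receptors, 14 of 16 adaptors and receptor inhibitors were detected, with GNB2L1 (700.3 ± 215 RPKM) and SHC1 (112 ± 6.06 RPKM) highest. GNB2L1 is the older symbol of the ribosome-bound scaffold RACK1, and SHC1 links the receptors to RAS. SH2B2 and SOCS1 fell short of the detection level, with means of 1.55 and 0.836 CPM. All 17 PI3K and AKT genes were detected, led by GSK3A (40.6 ± 8.99 RPKM) and AKT1 (31.9 ± 6.29 RPKM), a kinase that AKT inhibits and AKT itself. Of the mTOR genes, 9 of 10 were detected. RHEB, the GTPase that activates mTOR complex 1, had 73.9 ± 6.46 RPKM, and EIF4EBP1, its translation-repressing target, had 63.9 ± 25.8 RPKM. DEPTOR, an mTOR inhibitor, was the exception at 0.358 CPM. All 3 FOXO genes measured were detected, with FOXO1 at 9.50 ± 1.73 RPKM and FOXO3 at 3.24 ± 0.854 RPKM. The 3 mRNA-binding proteins named for IGF2 were all detected as well, with IGF2BP3 at 41.0 ± 12.2 RPKM and IGF2BP2 at 35.4 ± 4.00 RPKM.

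**Figure D4:**
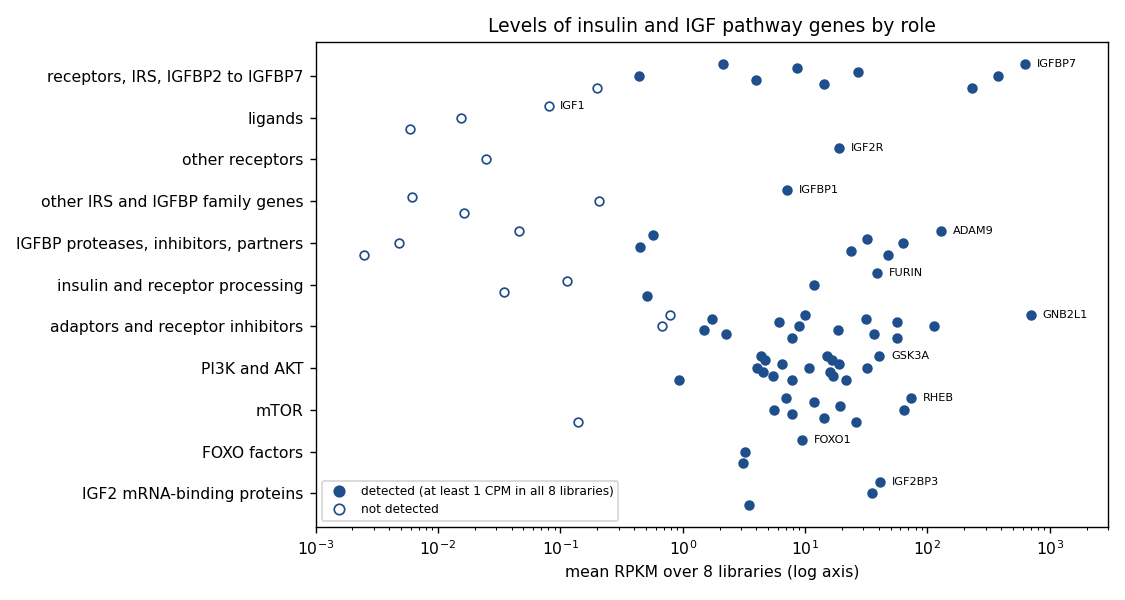
Mean RPKM over the 8 libraries (log axis) of the 10 transcripts and the 73 further pathway genes, by role, with the highest gene of each row named. Filled points are detected genes and open points are not. All 3 ligand genes are open, and all 17 PI3K and AKT genes are filled.

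Other genes were ranked by how closely their CQN-normalised values followed each transcript over the 8 libraries (Pearson's r over 11979 other detected genes, a description that shares all libraries). The closest genes were HUS1 (0.942) and NPR3 (0.935) for IGF1R, ACBD7 (0.991) and LINC00339 (0.989) for INSR, and IMPA1 (0.987) and DBNDD1 (0.962) for IRS1. For IGFBP2 they were FAM208A (0.980) and BGN (0.976), for IGFBP3 OXCT1 (0.994) and GALNT2 (0.990), and for IGFBP4 SH3RF1 (0.974) and MRPS15 (0.972). For IGFBP5 they were MBIP (0.963) and MTERF (0.945), and for IGFBP6 WAPAL (0.995) and G3BP1 (0.987). IGFBP7 was followed by FAT4 (0.996) and MAML2 (0.995). Such values were common for some transcripts and rare for others. An r above 0.9 was reached by 1033 genes (8.62%) for IGFBP7 and by 767 for INSR, but by 7 for IGF1R and 15 for IGFBP5.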

How the data were processed

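RNA libraries of 8 hCMEC/D3 samples (1 group) were measured. The authors deposited raw counts per gene, per the file headers, and log2 values from conditional quantile normalisation (CQN), per the file headers, for 13962 genes. The submitters' processing notes name CASAVA 1.9, TopHat2 2.0.6, HTSeq and the build hg19. Use of strand, the gene annotation and the CQN settings are not given in the sources used here. All deposited counts were even, so 2 counts were taken as 1 read pair, which no source used here states, and all 16 sample columns were matched by replicate number, with 0 others.

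CPM with TMM scaling, dispersion trends and the goodness-of-fit test came from edgeR 4.0.16 (R 4.3.3) on the deposited counts, with Benjamini-Hochberg adjustment at 0.05, tested on simulated data. DESeq2 1.42.0 gave alternative size factors and a trend, fitted by local regression since its parametric form fitted poorly. Gene positions came with the deposited counts. Identifiers, strands, exon numbers, lengths and GC content came from canonical GENCODE 44 transcripts lifted to GRCh37 and were found for 97.1% of detected genes. The length and GC trend was removed with natural splines (5 degrees of freedom each). Gene ratios used log2(RPKM + 0.1) and an exact sign-flip permutation test over 256 patterns. Depth was 34694272 to 45102622 read pairs per library, and PCR reads without molecular identifiers make the intervals cover counting error only.

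The members, pathway and marker lists and tests were chosen with earlier results of these data known. Named genes are all members, the 2 highest of each pathway list, those above the trend, those undetected where 5 or fewer, and the 2 closest genes of each detected member. FOXO6 was not analysed here, and PACE4 was taken as PCSK6.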

Additional observations from a re-analysis of the deposited data

How the results depend on the processing

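Under DESeq2 size factors, total counts as library size, halved counts, no filter on low counts and each left-out replicate, the number of members detected stayed at 9 and the number above the trend at 1, where each was computed. A minimum of 0.5 CPM or of 10 counts gave 10 detected. The DESeq2 fitted trend raised the members above the trend to 2, adding IRS1 (adjusted p = 0.00256), and the genes above it from 558 to 2811. Leaving out replicates 2, 7 and 8 gave 297 genes. With the length and GC trend removed, and without replicates 2, 7 and 8, 1 member was called, IGFBP6 in place of IGFBP2. Although libraries were split for IGFBP7/IGFBP4 on CQN-normalised values, the mean values of all 6 ratios kept their sign under every alternative run. Without replicates 2, 7 and 8 they were 2.05 for IGF1R/INSR, 1.20 for IGF2R/IGF1R, 3.84 for IRS1/IRS2, 8.08 for IGFBP2/IGFBP5, 4.68 for IGFBP3/IGFBP5 and 0.81 for IGFBP7/IGFBP4, each with an adjusted p of 0.0625, the smallest an exact permutation test over 5 libraries can give. With CQN-normalised values IGFBP7/IGFBP4 was 0.025, with 4 of 8 libraries positive (adjusted p = 0.586, exact permutation test), which gives it no clear sign there. Using the union of exons as length moved mean RPKM to 68.8 for IGFBP2, 8.18 for IGFBP3, 19.2 for IGFBP6 and 461 for IGFBP7. The same length gave log2 ratios of 0.59 for IGF2R/IGF1R, 6.94 for IGFBP2/IGFBP5, 4.00 for IGFBP3/IGFBP5 and 0.31 for IGFBP7/IGFBP4. CPM gave 6.76, 3.75 and 0.12 for the last 3, and a pseudocount of 1 gave 2.02 for IRS1/IRS2, 7.20 for IGFBP2/IGFBP5 and 3.40 for IGFBP3/IGFBP5. The IGFBP7 share was 42.5% on CPM. No paired analysis was possible because all samples form 1 group. At 30 to 96 read pairs per library, depth limits IRS2 most.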
